A study of Mus musculus with 6 samples.

Results

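The p53 pathway and the inhibitors of the cell cycle were described through 10 genes chosen by name in the RNA sequencing (RNA-seq) counts of primary osteoblasts, the bone-forming cells, from wild type (WT) mice and Tet triple conditional knockout (TCKO) mice. The genes were Cdkn1a, Cdkn1b, Cdkn2a, Cdkn2b, Cdkn2c, Mdm2, Ccng1, Trp53inp1, Phlda3 and Sesn2. All 10 were found among the 55471 genes of the table, and all 10 passed the filter on low counts that left 13826 tested genes. The study compared the genotypes to learn how the loss of TET enzymes, which oxidise 5-methylcytosine in DNA, changed gene expression in osteoblasts.

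The osteoblasts came from C57BL/6 mice aged 3 days and were kept in culture for 3 days before RNA was taken, with 3 libraries per genotype. TCKO animals carried Prx1-Cre together with floxed alleles of all the Tet genes, written Tet1fl/fl, Tet2fl/fl and Tet3fl/fl. Prx1-Cre is a transgene active in limb and part of skull mesenchyme, so cells of other origin in a culture would keep their Tet alleles. WT animals are given only as wild type, and whether they carried floxed alleles without Cre is not stated. How many animals gave each library is not stated either, so p-values measure the spread between these libraries, which may in part be technical.

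The transcription factor p53 is held low by the ubiquitin ligase Mdm2 and, once stabilised by DNA damage or other stress, switches on genes that arrest the cell cycle, repair DNA or start apoptosis. Cell-cycle entry depends on cyclin-dependent kinases (CDKs), which are held back by the CIP/KIP inhibitors (Cdkn1a, Cdkn1b, Cdkn1c) and by the INK4 inhibitors of CDK4 and CDK6 (Cdkn2a, Cdkn2b, Cdkn2c, Cdkn2d). In osteoblasts these inhibitors take part in the exit from proliferation that goes with differentiation, and p53 is known to restrain osteoblast differentiation.

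Facts of all 6 libraries that bear on these genes are given first. Total counts ranged from 8019999 to 10177214 per library. Replicates 1 and 2 of each genotype were close to each other (chi-square per degree of freedom 1.69 in WT and 2.04 in TCKO), whereas replicate 3 stood apart from both (16.6 to 23.3), so every member was also compared within these sets. The replicate 3 libraries had a mitochondrial share of counts of 2.22% and 2.47%, against 1.11% to 1.24% in the others, and TCKO replicate 3 held 4583 counts of Xist and 0 of Ddx3y where the other 5 libraries held 1 to 4 and 675 to 1094. By these counts TCKO replicate 3 was female-type and the other 5 libraries were male-type. Differences within replicate 3 therefore cannot tell sex and genotype apart. Of the targeted genes, Tet1 was lower in TCKO (log2 fold change -0.97 ± 0.16, SE; edgeR adjusted p = 0.00648) and Tet3 was higher (0.51 ± 0.09, adjusted p = 0.00745), while Tet2 did not pass (-0.14 ± 0.14, adjusted p = 0.545). With the counts of replicates 1 and 2 summed, neither gene passed (adjusted p = 0.0797 and 0.0878, the highest of 17 alternatives, of which the lowest were 4.49e-05 and 1.41e-08). Counts over all exons do not show whether the floxed exons were lost, so each direction rests on the labels. Of 8 osteoblast markers, Runx2, Alpl and Col1a1 were lower in TCKO, Sp7, Col1a2 and Ibsp did not pass, and the late markers Bglap and Dmp1 held at most 3 counts in any library. Their summed level, nearly all Col1a1 and Col1a2, was 14265 to 22409 CPM (counts scaled to library size, here with TMM factors) in TCKO against 30191 to 32552 in WT, with 5 markers lower without overlap. The summed level of 6 chondrocyte markers was 688 to 977 CPM in TCKO against 6265 to 8189 in WT, all 6 without overlap, that of 8 macrophage markers was 161 to 571 against 401 to 754, with 3 lower without overlap, and that of 5 skeletal muscle markers was 34.8 to 77.9 against 6.49 to 20.001, through Acta1, with 1 higher without overlap and Myf5 at 0. The summed level of 5 endothelial markers was 34.2 to 95.1 against 2.10 to 3.27, through Kdr, with 1 higher and 1 lower without overlap. The lower one, Tek, held 2 to 4 counts in TCKO and 6 to 8 in WT. The 4 keratinocyte markers held at most 3 counts. The part of these cell types in the results was not tested. In bulk RNA, fewer cells of a type and less RNA per cell cannot be told apart.

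No p53 target or cell-cycle inhibitor among the members was called higher in TCKO osteoblasts, and 3 were called lower. The INK4 inhibitor Cdkn2b fell to less than 50% of its WT level, Phlda3 and Sesn2, which damp AKT and mTORC1 signalling, fell by 24.2% and 22%, and the best known p53 target, Cdkn1a, did not differ beyond the spread between libraries. Of the 10 members, 3 were lower and 0 higher at an adjusted p under 0.05 (edgeR quasi-likelihood test, Benjamini-Hochberg adjustment over all tested genes), where 8.63% of all tested genes were lower and 9.07% higher. At an unadjusted p under 0.05, 5 members were lower and 0 higher (16% and 16.5% of all tested genes), and DESeq2 called 4 lower and 0 higher (8.54% and 9.11%). Cdkn2b was the 1 member that also passed a 2-fold cutoff, which 3.19% of tested genes passed downward and 3.16% upward. In CPM the genotypes were fully separate for 6 members, all lower in TCKO, against 18.9% of tested genes lower and 19.4% higher without overlap. The median log2 fold change of the members was -0.27, that of all tested genes was 0.00, and 8 of the 10 fold changes were negative. The members' count of lower calls fell to 1 without WT replicate 1 and without TCKO replicate 1, and to 2 without WT replicate 2 and without TCKO replicate 2. Lower calls among all 13826 tested genes fell as well, from 1193 to 589, 613, 550 and 636 in the same order of fits. With replicates 1 and 2 summed the members' count was 0 in edgeR, with 2 lower at an unadjusted p under 0.05. It was 1 when these sums were blocked by replicate number. All tested genes had 169 lower calls with the sums and 566 with the sums blocked.

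**Figure D1:**
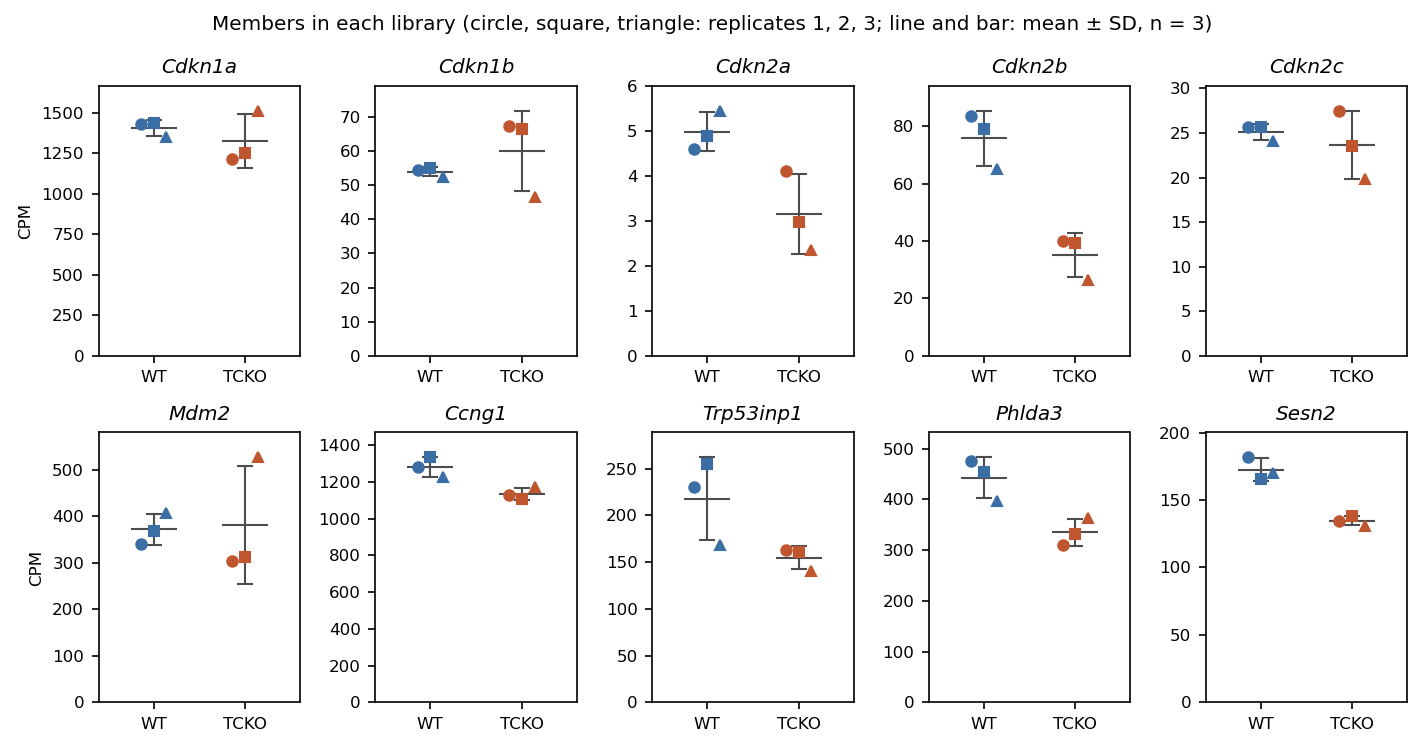
CPM of each of the 10 members (y axes, from 0, each with its own scale) in WT and TCKO libraries, with replicates 1, 2 and 3 as circle, square and triangle and with the mean and SD of 3 libraries. Cdkn2b, Cdkn2a, Ccng1, Trp53inp1, Phlda3 and Sesn2 show no overlap between genotypes, and TCKO replicate 3 lies above all WT libraries for Cdkn1a and Mdm2 and below all of them for Cdkn1b.

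Among the INK4 inhibitors, Cdkn2b showed the one large change. Cdkn2b (ENSMUSG00000073802, chromosome 4, 89306299 to 89311039, minus strand, GRCm38) encodes p15INK4b, which binds CDK4 and CDK6 and is a classical target of TGF-beta signalling. Its counts were 689, 791 and 536 (WT replicates 1 to 3) against 351, 315 and 234 (TCKO replicates 1 to 3), which is 83.4, 78.9 and 65.0 CPM in WT and 40.1, 39.2 and 26.2 CPM in TCKO. Every TCKO library lay well below every WT library, and replicate 3 was the lowest of its genotype in both. The mean fell from 75.8 ± 9.62 to 35.2 ± 7.73 CPM (SD, n = 3), 53.6% lower (log2 fold change -1.11 ± 0.17, SE; 95% interval -1.50 to -0.72; edgeR adjusted p = 0.00454). The call was kept when any one library was left out (adjusted p 0.00166 to 0.0259, log2 fold change -1.22 to -0.93). It was lost with replicates 1 and 2 summed (edgeR adjusted p = 0.0715) and regained when the sums were blocked by replicate number (0.00909), in a range over 17 alternatives from 2.96e-20 to 0.0715. On the log2 scale, replicates 1 and 2 differed by -1.0 and replicate 3 by -1.25.

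The sequence before the start of Cdkn2b is shown because TET enzymes act on methylated CpG, and every CpG is in capitals. The 250 bases before the RefSeq start (GRCm38.p6, chr4:89311033-89311282, minus strand) hold 12 CpG.
Cdkn2b: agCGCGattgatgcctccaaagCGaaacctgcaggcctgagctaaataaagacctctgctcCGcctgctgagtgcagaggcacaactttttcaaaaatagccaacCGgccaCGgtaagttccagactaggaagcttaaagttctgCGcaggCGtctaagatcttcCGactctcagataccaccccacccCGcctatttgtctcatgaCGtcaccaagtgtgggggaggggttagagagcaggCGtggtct
With the 50 bases after the start the window holds 18 CpG, against a median of 7 over 32851 RefSeq windows of 300 bases. No methylation was measured in these libraries, so the letters describe the region only. The study also ran whole genome bisulfite sequencing on WT and TCKO osteoblasts, which was not read here.

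Cdkn2a (ENSMUSG00000044303, chromosome 4, 89274471 to 89294653, minus strand), the neighbour of Cdkn2b at a distance of 11645 bp, encodes both p16INK4a and, from another first exon, p19ARF, an inhibitor of Mdm2. Counts per gene do not separate the products. Its counts were 38, 49 and 45 for WT against 36, 24 and 21 for TCKO, or 4.60, 4.89 and 5.45 CPM against 4.11, 2.98 and 2.36 CPM. The TCKO libraries all lay below the WT libraries, but TCKO replicate 1 came close to WT replicate 1. The log2 fold change of -0.66 ± 0.25 (95% interval -1.23 to -0.08) had an unadjusted p of 0.0300 and did not pass after adjustment (edgeR adjusted p = 0.110, range over 16 alternatives 0.0793 to 0.305). Its counts were low, 21 to 49 per library, and its spread in TCKO was wide, with a CV of 28.2% against 8.72% in WT. The RefSeq windows at its 2 starts differ in CpG, with 12 at the INK4a start (chr4:89282143-89282442) and 45 at the ARF start (chr4:89294570-89294869). The ratio of Cdkn2a to Cdkn2b in RPKM (CPM per kilobase of exon) was 0.0654, 0.0735 and 0.0996 in WT and 0.122, 0.0904 and 0.106 in TCKO. This was a log2 difference of 0.43 (exact two-sided permutation test, p = 0.2, adjusted p = 0.4 over 4 ratios). With 3 libraries against 3 the smallest p possible is 0.1, so none of the 4 ratios could pass and their p-values do not show that the genotypes are alike.

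Cdkn2c and Cdkn2d, the remaining INK4 genes, did not pass the test. Cdkn2c (ENSMUSG00000028551, p18INK4c, chromosome 4, 109660876 to 109667189) was at 25.7, 25.6 and 24.1 CPM in WT and 27.5, 23.5 and 19.9 CPM in TCKO, with overlapping genotypes (log2 fold change -0.09 ± 0.13; 95% interval -0.39 to 0.21; edgeR adjusted p = 0.677). The low value was that of TCKO replicate 3. Cdkn2d (p19INK4d) had a log2 fold change of 0.05 ± 0.14 (95% interval -0.28 to 0.39; edgeR adjusted p = 0.831).

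Per length, the INK4 genes together were lower in each TCKO library. Their summed level was 86.9, 81.9 and 74.1 RPKM in WT and 54.6, 51.5 and 44.0 RPKM in TCKO, and the share of this sum held by Cdkn2b was 63.1% to 69.4% in WT and 43.0% to 54.7% in TCKO. The sums of the genotypes did not overlap, and most of the gap was Cdkn2b. Of the summed level of all 7 CDK inhibitors, Cdkn1a alone made up 79.5% to 81.2% in WT and 82.6% to 88.3% in TCKO, while the INK4 share was 15.8% to 17.2% in WT and 9.11% to 13.2% in TCKO.

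**Figure D2:**
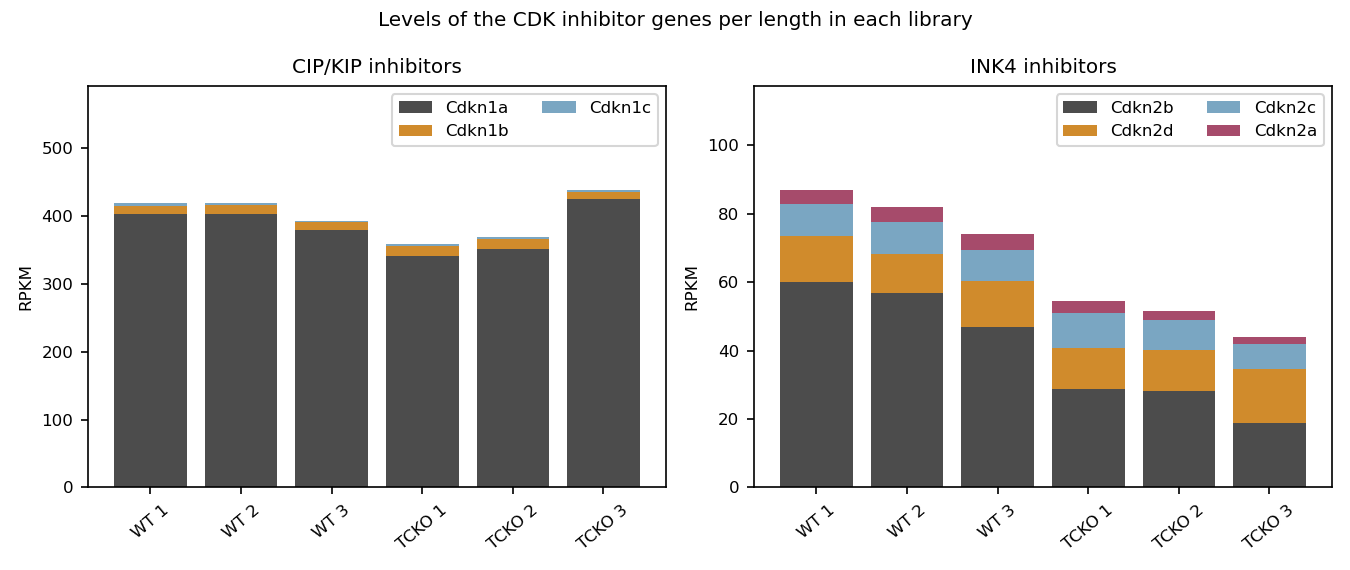
RPKM of the CIP/KIP genes (left) and the INK4 genes (right) in each of the 6 libraries, stacked by gene from 0 on separate scales. The INK4 stack reaches 74.1 to 86.9 RPKM in WT and 44.0 to 54.6 RPKM in TCKO, and the lowest segment, Cdkn2b, shrinks most.

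The CIP/KIP inhibitors showed no difference past the threshold. Cdkn1a (ENSMUSG00000023067, chromosome 17, 29090976 to 29100727, plus strand), which encodes p21, the main effector of p53-dependent arrest in G1, was at 1431, 1435 and 1350 CPM in WT and 1213, 1250 and 1514 CPM in TCKO. TCKO replicates 1 and 2 lay below all WT libraries and TCKO replicate 3 above them, so the genotypes overlapped. The means were 1405 ± 47.7 and 1326 ± 164 CPM (SD, n = 3), and the log2 fold change of -0.08 ± 0.11 (95% interval -0.33 to 0.16; edgeR adjusted p = 0.630) has an interval that holds changes of either sign. Within replicates 1 and 2 the log2 difference was -0.22, and within replicate 3 it was 0.16. Without both replicate 3 libraries the edgeR adjusted p was 7.79e-07, in a range over 17 alternatives from 7.79e-07 to 0.969. The replicates left in that fit are close to each other, whether its p-values are too small was not tested, and 22.5% of all tested genes were lower in it. A gene on the opposite strand, ENSMUSG00000117050, shares 273 bp of exon with Cdkn1a and held 8 to 27 counts.

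Cdkn1a was the member whose start held a p53 site by sequence, so its promoter is shown with the p53 half-sites in capitals. The 250 bases before the upstream RefSeq start (GRCm38.p6, chr17:29090729-29090978, plus strand) run as follows.
Cdkn1a: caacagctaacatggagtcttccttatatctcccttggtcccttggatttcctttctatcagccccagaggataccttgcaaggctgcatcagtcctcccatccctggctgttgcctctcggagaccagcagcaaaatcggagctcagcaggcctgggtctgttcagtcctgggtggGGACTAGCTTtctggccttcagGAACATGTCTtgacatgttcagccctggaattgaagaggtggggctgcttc
The strict matches to the half-site consensus begin 73 and 51 bases before the start and are separated by 12 bases. The bases that directly follow the second match, tgacatgttc, differ from the consensus at their first base only and were not counted. The capitals therefore show strict matches, not every likely half-site. Pairs of p53 half-sites with a spacer of at most 13 bases were found in 24 of 32851 windows (0.0731%), and among the 12 windows of 9 members in this one alone. Half-sites, paired or not, matched in 3 of the 12 member windows, those of Cdkn1a (upstream start), Mdm2 and Ccng1, against 8.36% of all windows. The half-site consensus reads the same on both strands, so it was searched once. No match in the windows of Phlda3 and Sesn2 says only that the motif is not in these 300 bases, and Trp53inp1 had no window. The upstream Cdkn1a window held 2 CpG and the one at its downstream start 23.

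Cdkn1b (chromosome 6, 134920401 to 134925513, plus strand), encoding p27, which holds CDK2 inactive in resting cells, was at 54.4, 55.1 and 52.5 CPM in WT and 67.3, 66.4 and 46.4 CPM in TCKO. Replicates 1 and 2 were higher in TCKO and replicate 3 was lower, the reverse of Cdkn1a. The log2 fold change of 0.15 ± 0.14 (95% interval -0.17 to 0.48) did not pass with all libraries (edgeR adjusted p = 0.50). Without TCKO replicate 3 it was 0.31 with an adjusted p of 0.0205, in a range over 17 alternatives from 0.000638 to 0.860, and Cdkn1b was then the 1 member higher in TCKO. The ratio of Cdkn1a to Cdkn1b in RPKM was 33.7, 33.4 and 33.0 in WT and 23.1, 24.1 and 41.8 in TCKO. The WT libraries had nearly the same ratio, whereas the TCKO libraries lay on both sides of it (log2 difference -0.22, exact permutation p = 0.4, adjusted p = 0.533). Cdkn1c, which encodes p57 and is imprinted, was at 9.81, 7.88 and 4.36 CPM in WT and 5.02, 5.22 and 4.60 CPM in TCKO. It did not pass (log2 fold change -0.57 ± 0.29, edgeR adjusted p = 0.217), but did without WT replicate 3 (-0.83, adjusted p = 0.0221, range over 17 alternatives 0.00112 to 0.597).

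Among the p53 targets outside the CDK inhibitors, Phlda3 and Sesn2 were lower in TCKO. Phlda3 (chromosome 1, 135766119 to 135769136, plus strand) encodes a PH-domain protein that competes with AKT for membrane lipids. It was at 476, 454 and 397 CPM in WT and 311, 332 and 364 CPM in TCKO. All TCKO libraries lay below all WT libraries, with the smallest gap between the replicate 3 libraries. The mean fell from 443 ± 40.7 to 336 ± 26.8 CPM (SD, n = 3), 24.2% lower (log2 fold change -0.40 ± 0.10; 95% interval -0.63 to -0.17; edgeR adjusted p = 0.0277). The call was lost without WT replicate 1 (adjusted p = 0.114), WT replicate 2 (0.107), TCKO replicate 1 (0.111) or TCKO replicate 2 (0.0999). It was also lost when replicates 1 and 2 were summed (0.309) or summed and blocked (0.24), in a range over 17 alternatives from 1.36e-16 to 0.309. On the log2 scale the gap was -0.53 in replicates 1 and 2, larger than the -0.13 of replicate 3.

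Sesn2 (chromosome 4, 132492032 to 132510501, minus strand) encodes sestrin 2, a leucine sensor that restrains mTORC1 and is induced by p53 and by ATF4. It was at 182, 165 and 170 CPM in WT and 135, 138 and 131 CPM in TCKO, the narrowest spread of the 3 members that passed. The genotypes did not overlap, and replicate 3 was not set apart. The mean fell from 172 ± 8.48 to 135 ± 3.42 CPM (SD, n = 3), 22% lower (log2 fold change -0.36 ± 0.07; 95% interval -0.52 to -0.20; edgeR adjusted p = 0.0116) and differences of -0.34 within replicates 1 and 2 and -0.37 within replicate 3. The call was lost without WT replicate 1 (adjusted p = 0.0592) or TCKO replicate 1 (0.0542) and when replicates 1 and 2 were summed (0.164) or summed and blocked (0.104), in a range over 17 alternatives from 5.94e-08 to 0.164. Gm12981 lies in its span, shares no exon bases with it and held 1 to 6 counts.

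Phlda3 and Sesn2 were both called lower, so the 250 bases before their RefSeq starts are shown with CpG in capitals. First is Phlda3 (GRCm38.p6, chr1:135765835-135766084, plus strand, 18 CpG) and then Sesn2 (chr4:132510457-132510706, minus strand, 18 CpG).
Phlda3: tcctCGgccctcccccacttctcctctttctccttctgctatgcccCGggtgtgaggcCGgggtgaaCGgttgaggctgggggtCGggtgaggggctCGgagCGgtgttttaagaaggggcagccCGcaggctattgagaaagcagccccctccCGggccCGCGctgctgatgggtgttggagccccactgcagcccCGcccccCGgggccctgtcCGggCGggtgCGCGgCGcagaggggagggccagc
Sesn2: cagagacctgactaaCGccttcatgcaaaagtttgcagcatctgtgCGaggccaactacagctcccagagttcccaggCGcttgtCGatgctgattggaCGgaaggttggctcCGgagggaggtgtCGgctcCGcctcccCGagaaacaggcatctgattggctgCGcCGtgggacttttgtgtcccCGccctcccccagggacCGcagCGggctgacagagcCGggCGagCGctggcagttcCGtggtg
With the 50 bases after the start these windows hold 26 and 23 CpG. Those of members that did not pass hold 30 (Cdkn1b), 35 (Mdm2), 14 (Ccng1) and, at their 2 starts each, 2 and 23 (Cdkn1a), 12 and 45 (Cdkn2a) and 8 and 33 (Cdkn2c). Of 12 member windows, 9 held GGGCGG on either strand (35.7% of all windows), 6 held CCAAT (37.4%) and 0 held TATAAA (13.6%).

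Trp53inp1 (chromosome 4, 11156431 to 11174379, plus strand), encoding a p53-induced nuclear protein that promotes the pro-apoptotic phosphorylation of p53, was just outside the threshold. It was at 230, 255 and 168 CPM in WT and 163, 161 and 141 CPM in TCKO. The genotypes did not overlap, but WT replicate 3 came close to TCKO replicates 1 and 2. The means were 218 ± 44.5 and 155 ± 12.2 CPM (SD, n = 3; log2 fold change -0.49 ± 0.15; 95% interval -0.84 to -0.15; edgeR adjusted p = 0.0576). It passed with the replicate number as a block (adjusted p = 0.0117), with DESeq2 (0.0200), without the low-count filter (0.00795) and without WT replicate 3 (0.00383). Summing replicates 1 and 2 raised the adjusted p to 0.324, or to 0.113 where the sums were blocked, in a range over 17 alternatives from 1.73e-16 to 0.324. Within replicates 1 and 2 the log2 difference was -0.58, and within replicate 3 it was -0.25. The RPKM ratio of Trp53inp1 to Trp53 was 1.17, 1.26 and 0.786 in WT and 0.722, 0.752 and 0.667 in TCKO. This was a log2 difference of -0.56 (exact permutation p = 0.1, the smallest possible, adjusted p = 0.4).

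Ccng1 (chromosome 11, 40748552 to 40755311, minus strand), encoding cyclin G1, a p53 target that recruits phosphatase PP2A to Mdm2, was at 1281, 1334 and 1225 CPM in WT and 1131, 1105 and 1171 CPM in TCKO. Every TCKO library lay below every WT library by a small margin. The log2 fold change of -0.17 ± 0.08 (95% interval -0.36 to 0.01) did not pass (edgeR adjusted p = 0.179). Without both replicate 3 libraries its adjusted p was 5.93e-07, with the same limit as for Cdkn1a, and the range over 17 alternatives was 5.93e-07 to 0.660.

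Mdm2 (chromosome 10, 117688875 to 117710758, minus strand), the ubiquitin ligase that degrades p53 and is itself a p53 target, was at 341, 369 and 406 CPM in WT and 304, 313 and 527 CPM in TCKO. TCKO replicates 1 and 2 lay below all WT libraries and TCKO replicate 3 above all of them, the same order as for Cdkn1a. Mean levels were 372 ± 32.8 (WT) and 381 ± 127 CPM (TCKO; SD, n = 3), and the log2 fold change was 0.04 ± 0.21 (95% interval -0.44 to 0.52; edgeR adjusted p = 0.924). Its sign turned to -0.27 without TCKO replicate 3 (edgeR adjusted p = 0.0714) and to -0.02 without WT replicate 1 (0.967). It also turned to -0.20 without both replicate 3 libraries (0.000237) and to -0.01 with the replicate number as a block (0.970). Over 17 alternatives the adjusted p of Mdm2 ranged from 0.000237 to 0.970. Its relative Mdm4, which holds p53 inactive without degrading it, did not pass (log2 fold change -0.01 ± 0.08, edgeR adjusted p = 0.921). The RPKM ratio of Mdm2 to Mdm4 was 14.7, 16.8 and 17.4 in WT and 12.7, 13.8 and 24.9 in TCKO (log2 difference 0.01, exact permutation p = 1). Trp53, the gene of p53 itself, was at 123, 126 and 134 CPM in WT and 141, 134 and 132 CPM in TCKO (log2 fold change 0.09 ± 0.07; 95% interval -0.07 to 0.25; edgeR adjusted p = 0.437), so its mRNA did not differ beyond the spread between libraries.

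**Figure D3:**
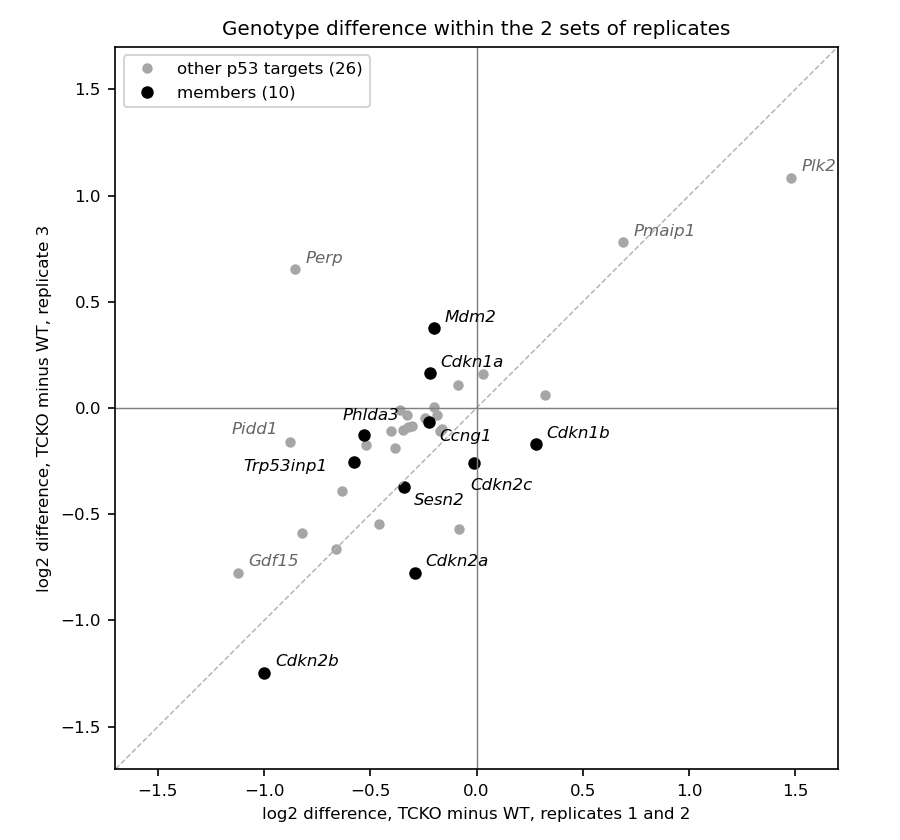
Log2 difference between TCKO and WT within replicates 1 and 2 (x axis) and within replicate 3 (y axis) for the 10 members (black) and 26 other p53 targets (grey), from log2 of CPM plus 2, with the dashed line marking equal values. Cdkn1a and Mdm2 lie in the upper left, lower in one set and higher in the other, whereas Cdkn2b is below -0.9 in both. The replicate 3 difference sets a female-type TCKO library against a male-type WT library.

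The members' directions were compared between the close replicates and replicate 3, which has 1 library per genotype and so carries no test. Its TCKO library was female-type and its WT library male-type, so sex and genotype cannot be told apart there. Of the 10 members, 3 (Cdkn1a, Cdkn1b and Mdm2) had opposite signs in the 2 sets, near the 30.9% of all tested genes that did. In replicates 1 and 2 their median log2 difference was -0.26 and in replicate 3 it was -0.21, against 0.00 and 0.01 over all tested genes. Without both replicate 3 libraries 7 members were lower and 1 higher, where 22.5% and 22.6% of all tested genes were.

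Levels per length ordered the members similarly in both genotypes. In WT the order by mean RPKM was Cdkn1a (396 ± 13.4, SD, n = 3), Ccng1 (364 ± 15.6), Phlda3 (284 ± 26.1), Mdm2 (73.2 ± 6.45), Cdkn2b (54.5 ± 6.92), Sesn2 (49.6 ± 2.44), Trp53inp1 (33.7 ± 6.88), Cdkn1b (11.9 ± 0.294), Cdkn2c (9.36 ± 0.330) and Cdkn2a (4.25 ± 0.371). Only Cdkn2b and Sesn2 overlapped among neighbours in this order. In TCKO Cdkn2b, at 25.3 ± 5.56 RPKM, fell below Sesn2, at 38.7 ± 0.986 RPKM, to a range shared with Trp53inp1 (23.9 ± 1.88 RPKM), and Cdkn1b and Cdkn2c overlapped as well. Cdkn1a, Ccng1 and Phlda3 were above 98% of tested genes in RPKM in both genotypes, and Cdkn2a was above 42.0% in WT and 31.3% in TCKO.

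**Figure D4:**
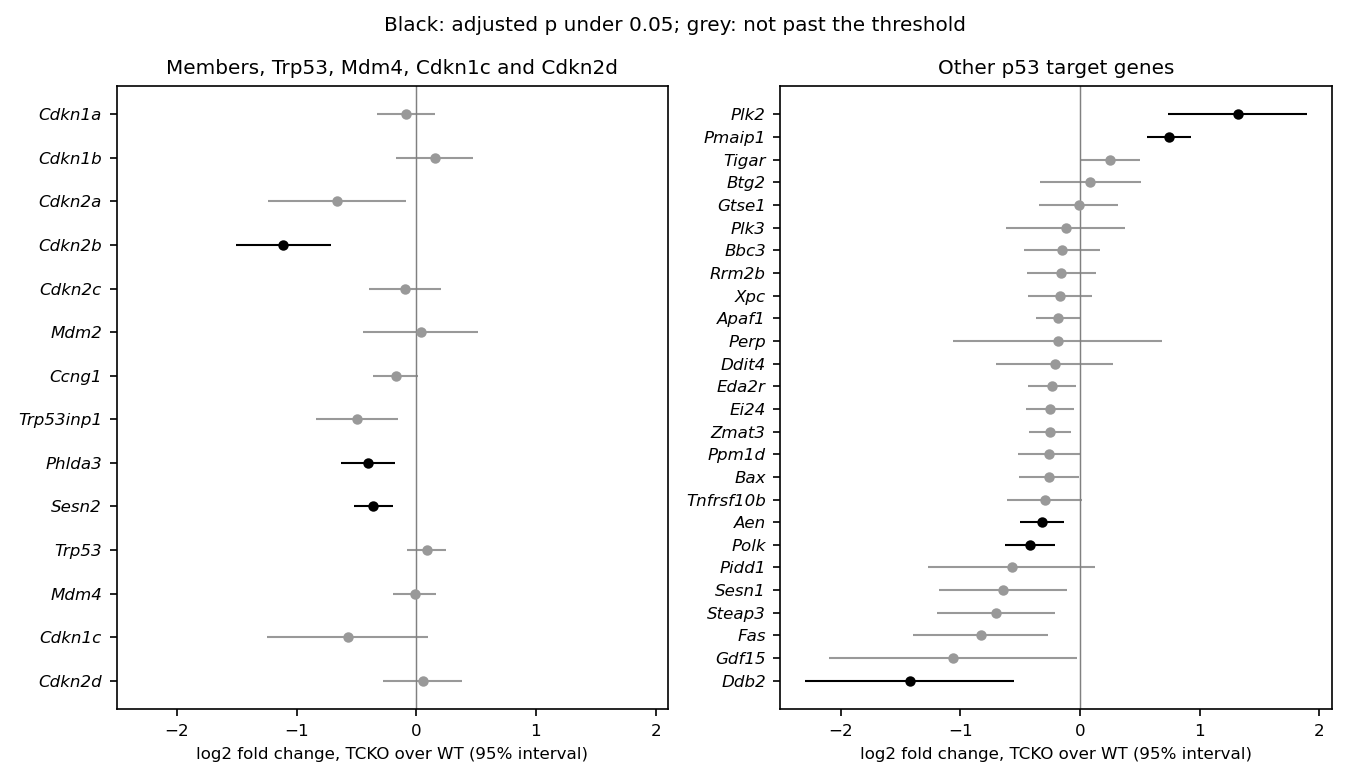
Log2 fold change of TCKO over WT with its 95% interval (x axis) for the members, Trp53, Mdm4, Cdkn1c and Cdkn2d (left) and for 26 other p53 targets (right), black where the edgeR adjusted p was under 0.05. In the left panel Cdkn2b, Phlda3 and Sesn2 are black and lie left of 0, and in the right panel 2 black genes lie right of 0 and 3 left.

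To place the members in their pathway, 26 other p53 targets were read from the same fit. Few passed after adjustment, in shares near those of all genes. Of 26, 2 were higher (7.69%, against 9.07% of all tested genes) and 3 lower (11.5%, against 8.63%) at an adjusted p under 0.05. More were lower before adjustment, with 13 of the 26 lower and 3 higher at an unadjusted p under 0.05. Of all tested genes, 16% were lower and 16.5% higher at that cutoff. Their median log2 fold change was -0.24 with 22 negative values, against 0.00 over all tested genes. Without overlap between genotypes 11 of the 26 were lower and 3 higher, where 18.9% and 19.4% of all tested genes were. Higher were Plk2, a kinase of the stress response (183 ± 67.9 against 454 ± 87.9 CPM, SD, n = 3; log2 fold change 1.32 ± 0.25, edgeR adjusted p = 0.0107), and Pmaip1, which encodes the pro-apoptotic protein NOXA (49.8 ± 3.59 against 83.3 ± 2.01 CPM; 0.74 ± 0.08, adjusted p = 0.000949). These genes moved against the members' median. Lower were the DNA repair genes Polk, a translesion polymerase (-0.42 ± 0.09, adjusted p = 0.0172), and Ddb2, a sensor of ultraviolet damage (4 to 18 counts per library; -1.42 ± 0.38, adjusted p = 0.0366), and the nuclease gene Aen (-0.32 ± 0.08, adjusted p = 0.0278). Polk and Aen lost their calls without any one of replicates 1 and 2, with edgeR adjusted p-values of 0.0764 and 0.0912 (WT replicate 1), 0.0760 and 0.106 (WT replicate 2), 0.0730 and 0.110 (TCKO replicate 1) and 0.0715 and 0.114 (TCKO replicate 2). The range over 17 alternatives was 4.89e-10 to 0.228 for Polk and 9.23e-10 to 0.299 for Aen. Ddb2 lost its call without WT replicate 1 (0.0519), 2 (0.123) or 3 (0.0655), without TCKO replicate 1 (0.127) or 2 (0.109), with DESeq2 (0.111) and without the low-count filter (0.0568), in a range over 16 alternatives from 0.0178 to 0.188. Plk2 lost its call without WT replicate 2 (0.0511, range over 17 alternatives 8.34e-41 to 0.121). The count of lower targets was 0 in each of the edgeR fits without WT replicate 1, WT replicate 2, TCKO replicate 1 or TCKO replicate 2 (6, 7, 6 and 7 at an unadjusted p under 0.05), 6 without WT replicate 3 and 12 without TCKO replicate 3. It was 9 with the replicate number as a block, and 3 when replicates 1 and 2 were summed and blocked. The higher count was 3 without WT replicate 3 and 1 without WT replicate 2. With replicates 1 and 2 summed 1 was higher, Pmaip1 (adjusted p = 0.0343, range over 17 alternatives 1.6e-13 to 0.0343), and 0 were lower, with 4 lower at an unadjusted p under 0.05. Of all 13826 tested genes, 550 to 636 were called lower without any one of replicates 1 and 2, and 169 with these sums. Lower calls among all tested genes numbered 1509 without WT replicate 3 and 1399 without TCKO replicate 3, against 1193 in the main fit. They numbered 1585 with the replicate number as a block and 566 with the sums blocked.

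Of 15 genes for p53, its relatives and its regulators, 14 were tested, with a median of 0.01. At an adjusted p under 0.05, 0 were higher (against 9.07% of all tested genes) and 1 lower (7.14%, against 8.63%). At an unadjusted p under 0.05, 1 was higher and 1 lower, against 16.5% and 16% of all tested genes. DESeq2 called 0 higher and 1 lower, against 9.11% and 8.54%. Without WT replicate 3, 1 was higher. The lower gene was Trp63, a p53 relative of epithelial and some skeletal cells, whose WT libraries held 30, 52 and 13 counts and whose TCKO libraries held 1, 0 and 0 (edgeR adjusted p = 0.00338). The WT libraries with Trp63 counts held at most 3 counts of each keratinocyte marker.

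The kinases that the INK4 proteins bind, Cdk4 and Cdk6, were higher in TCKO, and of their 3 D-type cyclins Ccnd1 was lower while Ccnd2 and Ccnd3 did not pass. Cdk4 rose from 233 ± 10.2 to 316 ± 5.26 CPM (SD, n = 3; log2 fold change 0.44 ± 0.07, edgeR adjusted p = 0.00484), and Cdk6 from 31.6 ± 2.60 to 47.9 ± 2.92 CPM (0.60 ± 0.09, adjusted p = 0.00487). Cdk2, the partner of Cdkn1a and Cdkn1b, was also higher (0.43 ± 0.09, adjusted p = 0.0146), and lost the call without WT replicate 1 (0.0700) and TCKO replicate 2 (0.0611), in a range over 17 alternatives from 0.000589 to 0.135. Ccnd1, cyclin D1, was at 795, 769 and 438 CPM in WT and 159, 151 and 202 CPM in TCKO, with no overlap (log2 fold change -1.96 ± 0.23, edgeR adjusted p = 0.00151), and it kept its call without any one library. Ccnd2 and Ccnd3, named here outside the rule to complete the D cyclins, had log2 fold changes of -0.52 ± 0.16 (edgeR adjusted p = 0.0623) and -0.08 ± 0.09 (0.610). Ccnd2, at 1595 to 2447 CPM in WT and 1477 to 1522 CPM in TCKO, passed with the replicate number as a block (0.0361), with DESeq2 (0.0125), without the low-count filter (0.0053) and without WT replicate 3 (0.00142), but not with replicates 1 and 2 summed (0.414) or summed and blocked (0.305), in a range over 17 alternatives from 5.01e-29 to 0.414. The list of 14 G1 kinases, cyclins, pocket proteins and E2F factors had a median of 0.30. Of these, 6 were higher (42.9%, against 9.07% of all tested genes) and 1 lower (7.14%, against 8.63%). The higher count was 2 without WT replicate 1 or TCKO replicate 2 and 3 without WT replicate 2 or TCKO replicate 1. The lower count was 2 without WT replicate 3 and with the replicate number as a block, and 1 when replicates 1 and 2 were summed and blocked. All tested genes had 1509, 1585 and 566 lower calls in these fits, in that order. With replicates 1 and 2 summed, edgeR gave 0 higher and 0 lower, with 5 higher and 1 lower at an unadjusted p under 0.05. Of 20 genes of S phase and mitosis, 16 were higher (80%, against 9.07% of all tested genes) and 0 lower (against 8.63%). There were 0 lower also at an unadjusted p under 0.05 and with DESeq2, and the median was 0.74. Mcm6, Mcm4 and Mcm2 of the replicative helicase had the lowest adjusted p-values (1.07 ± 0.13, 0.59 ± 0.09 and 0.70 ± 0.12 on the log2 scale, edgeR adjusted p = 0.00154, 0.00374 and 0.00609). The count of higher genes was 5 without WT replicate 1 or WT replicate 2, 6 without TCKO replicate 1, 8 without TCKO replicate 2 and 1 with replicates 1 and 2 summed. At an unadjusted p under 0.05 it was 15 with these sums and 20 with the sums blocked. Of all 13826 tested genes 217 were called higher with these sums. All 20 fold changes were positive, and 19 genes were higher without overlap, against 19.4% of all tested genes.

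The list of 11 Polycomb and related genes known to act on the Cdkn2a and Cdkn2b locus had a median of 0.12. Of these, 0 were lower (against 8.63% of all tested genes) and 2 were higher (18.2%, against 9.07%). They were Ezh2, the Polycomb methyltransferase (10.1 ± 0.191 against 16.4 ± 1.36 CPM, SD, n = 3; log2 fold change 0.69 ± 0.12, edgeR adjusted p = 0.00803), and Kdm6b, which removes the mark that Ezh2 sets (70.2 ± 3.93 against 101 ± 4.52 CPM; 0.53 ± 0.08, adjusted p = 0.00337). Both kept their calls without any one library. At an unadjusted p under 0.05, 3 were higher and 2 lower, against 16.5% and 16% of all tested genes. DESeq2 called 2 higher and 0 lower, against 9.11% and 8.54%. With the replicate number as a block 1 was lower (1585 of all tested genes), or 0 when the replicates were summed as well (566 of all tested genes). Without TCKO replicate 3, 3 were higher. With replicates 1 and 2 summed 0 were higher, with 2 at an unadjusted p under 0.05, and the edgeR adjusted p was 0.112 for Ezh2 and 0.0777 for Kdm6b, the highest of 17 alternatives, of which the lowest were 5.37e-05 and 2.79e-10.

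**Figure D5:**
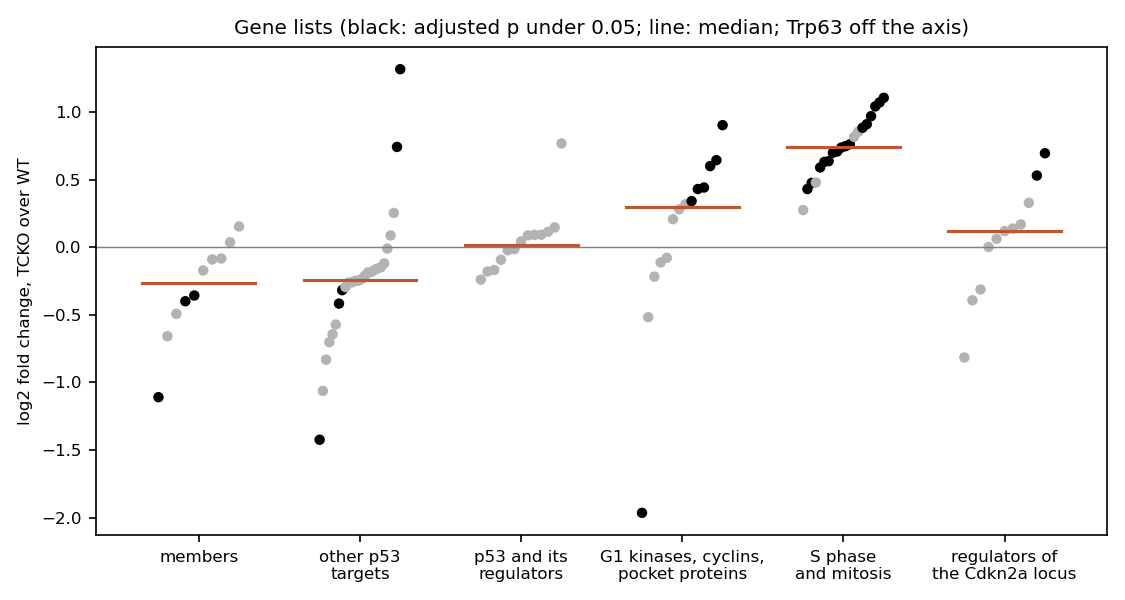
Log2 fold change of TCKO over WT (y axis) of each tested gene in 6 lists (x axis), black where the edgeR adjusted p was under 0.05, with the median as a line and Trp63 below the axis. The medians are -0.27 for the members, -0.24 for other p53 targets, 0.01 for p53 regulators, 0.30 for G1 genes, 0.74 for S phase and mitosis and 0.12 for regulators of the Cdkn2a locus.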

How the data were processed

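Poly(A) RNA of WT and TCKO osteoblasts was sequenced in 3 libraries per genotype, and whether these are separate cultures is not stated. The authors aligned reads to GRCm38 with STAR 2.7.0e and counted them per gene with featureCounts 2.0.0, per the labels. The deposited values are raw, unnormalized counts. Whether strand was used in counting is not stated, so overlapping genes are less certain. Symbols were matched by identifier for 55144 of 55471 genes (99.4%).

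Groups and replicate numbers came from sample titles. Genes were filtered with filterByExpr, scaled by TMM and tested for genotype with edgeR 4.0.16 in R 4.3.3 (glmQLFit, glmQLFTest, no covariates, Benjamini-Hochberg over 13826 genes). Standard errors derive from the quasi-likelihood F statistic. Single-library differences use log2 of CPM plus 2. The scripts were tested on simulated data. The alternatives were RLE or upper-quartile factors, keeping every gene with a count, keeping genes that averaged 50 counts or had RPKM over 0.24, DESeq2 1.42.0, a robust fit, a replicate block, each library or both replicate 3 libraries left out, and replicates 1 and 2 summed, alone or with the block. The authors used DESeq2.

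The members and lists were chosen with earlier results of these data known. All members, Trp53, Mdm4, Cdkn1c, Cdkn2d and the Tet genes were named, with the passing genes of the 3 lowest adjusted p-values per list and direction and genes overlapping a member. Same-numbered libraries of the 2 genotypes deviated together across genes (r = 0.204, 0.214 and 0.347 for numbers 1, 2 and 3). Numbers 1 and 2 also correlated crosswise (0.188 and 0.225), so these values do not show which of them pair. The labels name no shared litter or day. The main test used no block, and the replicate number was a block only among the alternatives. Promoter sequences are from RefSeq (GRCm38.p6) and were found for 9 of 10 members.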

Additional observations from a re-analysis of the deposited data

How the results depend on the processing

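Scaling by RLE or upper-quartile factors and the robust fit left the direction and call of all 10 members as reported. Without both replicate 3 libraries, 22.5% of all tested genes were lower and 22.6% higher, and the replicates left are close to each other. In that fit 7 members were lower and 1 higher, and Mdm2 reversed to -0.20. Lower there were 16 other p53 targets, 3 regulators of p53, 3 G1 genes, 1 Polycomb gene and 1 of the other CDK inhibitors. Higher were 3 other p53 targets, 3 regulators of p53, 6 G1 genes, 20 genes of S phase and mitosis and 3 Polycomb genes. With replicates 1 and 2 summed, 0 members, 0 other p53 targets and 0 G1 genes were lower, and 1 other p53 target, 0 G1 genes, 1 gene of S phase and mitosis and 0 Polycomb genes were higher. With these sums and a replicate block, 1 member, 3 other p53 targets, 1 G1 gene and 0 Polycomb genes were lower, and 1 G1 gene, 6 genes of S phase and mitosis and 1 Polycomb gene were higher. All 13826 tested genes had 217 higher and 169 lower calls with the sums, and 584 and 566 with the sums blocked. Without the low-count filter, 6 other p53 targets, 2 G1 genes and 1 Polycomb gene were lower, and DESeq2 gave 2 lower G1 genes. The fit without this filter called 1428 of 26350 genes lower, and DESeq2 called 1181 of 13826 lower. A mean of at least 50 counts or RPKM over 0.24 left 0 regulators of p53 lower, because Trp63 was no longer tested. The replicate block, used alone, gave 9 lower other p53 targets, 2 lower G1 genes and 1 lower Polycomb gene. All 13826 tested genes had 1664 higher and 1585 lower calls with this block, against 1254 and 1193 in the main fit. The block moved Trp53inp1 past the threshold (edgeR adjusted p = 0.0117) and changed no other member's call.

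Leaving out 1 library gave 0 to 1 higher and 1 to 4 lower members, 1 to 3 higher and 0 to 12 lower other p53 targets, 0 to 1 higher regulators of p53, 0 to 1 lower other CDK inhibitors, 2 to 6 higher and 1 to 2 lower G1 genes, 5 to 19 higher genes of S phase and mitosis and 2 to 3 higher Polycomb genes. Among all 13826 tested genes these fits called 603 to 1613 higher and 550 to 1509 lower, against 1254 and 1193 with all libraries. Where no cause is given it was not tested. With 3 libraries per genotype, of which 2 are close to each other, low counts such as those of Cdkn2a limit the precision.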

Other observations

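Perp, a p53 target of desmosomes, was named here after its values were seen. Its log2 difference between TCKO and WT was -0.85 within replicates 1 and 2 and 0.66 within replicate 3, the largest split of sign among the 26 other p53 targets, of which 3 (Perp, Plk3 and Gtse1) had opposite signs in the 2 sets. Its log2 fold change over all libraries was -0.19 ± 0.38 (SE, edgeR adjusted p = 0.774). Gdf15, a secreted stress factor also named after its values were seen, was lower in both sets (-1.12 and -0.78) and did not pass (-1.06 ± 0.45, edgeR adjusted p = 0.145).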
